A study of Mus musculus with 8 samples.

Results

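Transferrin receptor 1 and 9 further genes of cellular iron uptake, export, storage and sensing are described here in 4 sorted populations of common myeloid progenitors, the mouse bone marrow cells that precede the granulocyte, monocyte, erythroid and megakaryocyte lineages. The genes were listed by name: Tfrc, Slc11a2, Steap3 and Hfe for uptake, Slc40a1 for export, Fth1, Ftl1 and Ncoa4 for storage, and Aco1 and Ireb2 for sensing. All 10 were found among the 24411 genes of the deposited tables, and all 10 passed the filter on low counts that left 13177 genes for testing. Tfrc was put on the list because its level was highest in one of the populations, so that level is a description with no test, and the other genes were listed with earlier results of these data known.

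RNA was sequenced from 8 libraries, 2 from each population, all from wild-type C57BL/6 bone marrow and all sorted as KIT+ and CD16/32-. The CD41/CD9-negative population was CD34dim CD41- CD9-. The CD34bright population was CD41+ CD9+. The CD48bright and CD48dim populations were both CD34dim CD41+ CD9+ and differed in CD48. No treatment, age or sex is given in the labels, and whether partner libraries stem from different animals or sorting runs is not stated. The p-values below therefore weigh differences against a spread between libraries that may be technical only. Library totals lay between 7237587 and 20632005 expected counts. CPM, the count scaled to the TMM-adjusted library total, is used to compare 1 gene between libraries, and TPM, which also divides by transcript length, to compare genes with one another.

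The labels and the libraries were compared first. Itga2b, which encodes CD41, lay at 2.83 and 2.18 CPM in CD41/CD9-negative cells and between 64.3 and 155 CPM in the other 6 libraries, and Cd48 lay at 35.8 and 16.9 CPM in CD48dim cells and between 157 and 246 CPM elsewhere, so both followed the gates. Kit was detected in every library, at 240.0 and 358 CPM in CD41/CD9-negative cells and between 607 and 1226 CPM in the others. The 2 CD48dim libraries resembled each other least, with a Spearman correlation across genes of 0.836, against 0.954 to 0.976 for the partners of the other populations. CD48dim replicate 2 was the shallowest library, had 38947 CPM of the nuclear RNA Malat1 against 5004 to 14867 CPM in the other 7, and drew 2.38% of its counts from ribosomal protein genes against 5.21% to 9.78%.

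Most cells take up iron as transferrin bound to transferrin receptor 1, the product of Tfrc. The complex is carried into endosomes, where a STEAP reductase reduces the freed iron and DMT1, the product of Slc11a2, moves it to the cytosol. Surplus iron is stored in ferritin, a shell of heavy (Fth1) and light (Ftl1) chains that the cargo receptor NCOA4 delivers to lysosomes for breakdown, or leaves through ferroportin, the product of Slc40a1. When iron is scarce, the iron regulatory proteins IRP1 and IRP2, encoded by Aco1 and Ireb2, bind a hairpin in these messengers called the iron-responsive element. Binding in the 5′ untranslated region holds back translation, and binding in the 3′ untranslated region of Tfrc protects its messenger from decay. Erythroid precursors are the marrow cells best known for high transferrin receptor. Only RNA was measured here, so receptor on the surface and ferritin protein are not described.

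The hairpins are shown because this control acts through them. The search finds only those that match 1 strict pattern, and a messenger without a match may still carry the control. Annotated untranslated regions (GENCODE M21, build GRCm38, transcript strand only) were searched for an unpaired C, 5 stem bases, the 6-base loop CAGTGN and 5 stem bases. The 5 stem bases on either side had to pair, G with T included, with at least 4 further pairs below the unpaired C. Among these further pairs, 1 more unpaired base was allowed on the 5′ side. Such a hairpin was found in 21 of 22500 coding genes, or 0.0933%, and in 4 of the 10 genes described here. Fth1, Ftl1 and Slc40a1 hold 1 each in the 5′ untranslated region, and Tfrc holds 4 in the 3′ untranslated region. Each is printed 5′ to 3′ over 30 bases with the loop in capitals.
Fth1, chr19:9982731-9982760, plus strand: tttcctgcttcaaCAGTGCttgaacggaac
Ftl1, chr7:45459779-45459808, minus strand: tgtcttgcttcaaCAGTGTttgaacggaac
Slc40a1, chr1:45925465-45925494, minus strand: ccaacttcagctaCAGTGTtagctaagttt
Tfrc site 1, chr16:32631218-32631247, plus strand: taattatcggaagCAGTGCcttccataatt
Tfrc site 2, chr16:32631597-32631626, plus strand: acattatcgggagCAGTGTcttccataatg
Tfrc site 3, chr16:32631662-32631691, plus strand: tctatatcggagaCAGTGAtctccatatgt
Tfrc site 4, chr16:32631709-32631738, plus strand: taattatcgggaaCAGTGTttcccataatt
These are matches of letters and pairing, not sites of measured binding, and no match in Slc11a2 says only that this pattern is not in its annotated untranslated regions.

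Tfrc (chromosome 16, 32608896 to 32632794, GRCm38) had the levels for which it was chosen. It lay at 609.8 and 797 CPM in CD41/CD9-negative cells, at 112 and 109.8 CPM in CD34bright cells, at 173 and 243 CPM in CD48bright cells and at 76.7 and 124 CPM in CD48dim cells. Both CD41/CD9-negative libraries lay above all 6 others, with a mean of 704 ± 133 CPM (SD, n = 2) against 111 ± 1.77, 208 ± 49.6 and 100.6 ± 33.8 CPM in CD34bright, CD48bright and CD48dim cells. The fitted log2 difference of CD41/CD9-negative cells was 2.66 from CD34bright, 1.76 from CD48bright and 2.81 from CD48dim, given without a test because the gene was chosen on it. In bulk samples of this kind, more cells with the transcript and more transcript per cell cannot be told apart.

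**Figure D1:**
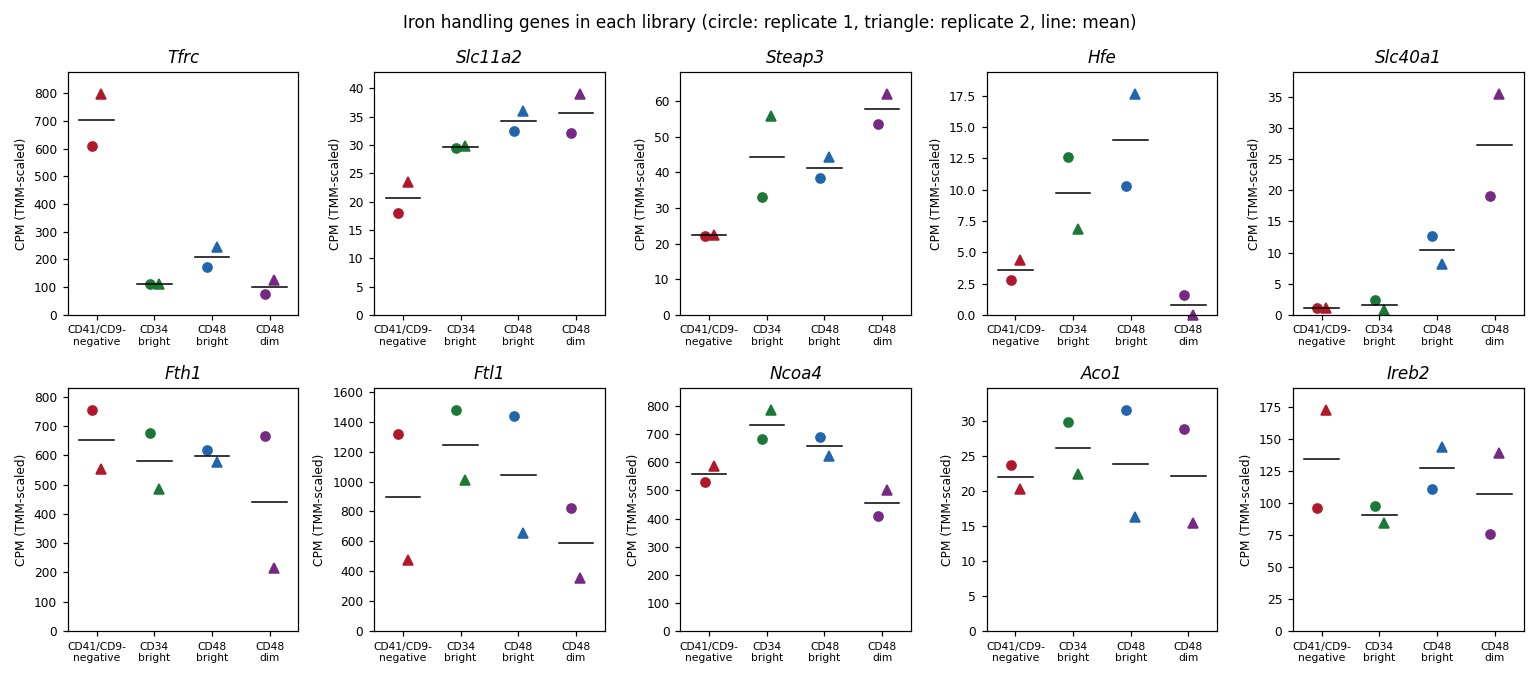
Level of each of the 10 iron handling genes in CPM (y axis, linear from 0, a scale of its own per panel) in the 4 populations (x axis), with circles for replicate 1, triangles for replicate 2 and a line at the mean of the 2. The 2 CD41/CD9-negative libraries stand highest for Tfrc and lowest for Slc11a2 and Steap3, Slc40a1 is highest in CD48dim cells, and the libraries of Fth1, Ftl1, Aco1 and Ireb2 overlap between most populations.

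Tfrc was chosen for lying highest in CD41/CD9-negative cells, which sets no order among the CD41+ CD9+ populations. There the order was CD48bright, CD34bright, CD48dim. Both CD48bright libraries lay above both libraries of CD34bright and of CD48dim, whereas CD34bright and CD48dim overlapped. Tfrc differed by a log2 fold change of 1.05 ± 0.36 (SE) between CD48bright and CD48dim cells, with an adjusted p of 0.241 by edgeR's quasi-likelihood test with Benjamini-Hochberg adjustment over all genes. Between CD34bright and CD48bright cells the log2 fold change was -0.90 ± 0.36 (SE), with an adjusted p of 1 by the same test, and the unadjusted p-values were 0.0157 and 0.0302. In TPM, the order of CD48dim and CD34bright was exchanged, at 48.3 ± 28.4 and 37.8 ± 4.17 TPM (SD, n = 2), with overlapping libraries as before.

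CD41/CD9-negative cells were set apart from the rest in cell type markers at the same time. The 7 early lymphoid markers summed to 2365 to 3561 CPM in CD41/CD9-negative libraries, 327 to 336 in CD34bright, 291 to 432 in CD48bright and 173 to 196 in CD48dim libraries. The 8 monocyte and dendritic markers summed to 1778 to 2329 CPM in CD41/CD9-negative libraries, 398 to 456 in CD34bright, 451 to 468 in CD48bright and 38.8 to 43.0 in CD48dim libraries. All 7 and all 8 were called higher in CD41/CD9-negative cells than in the mean of both CD48 populations, where 322 of 13177 genes (2.44%) were called in either direction, and no member of these lists was at 0 in CD41/CD9-negative cells. Their part in the level of Tfrc was not tested.

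Erythroid markers were not highest where Tfrc was. The 16 erythroid markers summed to 586 to 618 CPM in CD41/CD9-negative libraries, 303 to 387 in CD34bright, 530 to 1074 in CD48bright and 1218 to 1596 in CD48dim libraries. None of the 16 was called higher in CD41/CD9-negative cells than in the mean of the CD48 populations, and 1, the erythropoietin receptor gene Epor, was called lower at an edgeR adjusted p of 0.0488. That call was lost with limma-voom (adjusted p = 0.0771), with only the libraries compared (edgeR adjusted p = 0.0729), and without either library of CD41/CD9-negative, CD34bright or CD48bright cells (edgeR adjusted p of 0.0615 to 0.404). Epor lay at 4.33 and 3.55 CPM in CD41/CD9-negative cells, 4.07 and 9.31 CPM in CD34bright, 19.7 and 9.87 CPM in CD48bright and 35.6 and 52.9 CPM in CD48dim cells. The 14 cycling markers summed to 5339 to 5892 CPM in CD41/CD9-negative cells, to 6405 to 6540 in CD34bright, to 5416 to 5830 in CD48bright and to 3089 to 4169 in CD48dim cells. Of the 14, 13 had a positive log2 difference in CD41/CD9-negative cells from the mean of the CD48 populations, as had 6460 of 13177 genes, and edgeR called none of the 14. Positive differences were not particular to these cells. CD34bright cells had 14 of 14 against the same mean (6253 of all genes), and CD48bright cells 13 of 14 against CD48dim (6355 of all genes). The part of erythroid and cycling markers in the level of Tfrc was not tested.

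The second transferrin receptor was lowest in the population where Tfrc was highest. Tfr2 (chromosome 5, 137569822 to 137588081) is not among the 10 genes and belongs to the wider list of iron transport genes. Its product binds transferrin with lower affinity, takes part in iron sensing in liver, and binds the erythropoietin receptor in erythroid cells. Tfr2 lay at 13.3 and 16.95 CPM in CD41/CD9-negative cells, 73.1 and 85.9 CPM in CD34bright, 95.7 and 77.2 CPM in CD48bright and 202 and 148 CPM in CD48dim cells. The CD41/CD9-negative libraries lay below all 6 others, and both CD48dim libraries above all others.

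Tfr2 fell by 3.02 ± 0.34 (log2, SE) in CD41/CD9-negative cells against the mean of CD48bright and CD48dim, with an adjusted p of 0.00271 by edgeR's quasi-likelihood test with Benjamini-Hochberg adjustment. Against single populations it was called in each case, by a log2 difference of -2.39 from CD34bright (adjusted p = 0.0232), -2.51 from CD48bright (adjusted p = 0.0429) and -3.53 from CD48dim (adjusted p = 0.00199) in the same edgeR fit. Without CD41/CD9-negative replicate 1 the call against the mean of the CD48 populations was lost, at a log2 difference of -2.85 and an edgeR adjusted p of 0.0748. The calls against CD34bright and CD48bright were each lost without either CD41/CD9-negative library and without either CD34bright library, and that against CD48bright also without either CD48bright library, with edgeR adjusted p between 0.0651 and 0.515.

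Per transcript length, the balance of both receptors differed widely. The TPM of Tfrc divided by that of Tfr2 was 32.5 and 32.3 in CD41/CD9-negative cells, 1.06 and 0.879 in CD34bright, 1.25 and 2.17 in CD48bright and 0.261 and 0.581 in CD48dim cells. Tfr2 thus had the higher level per length in both CD48dim libraries and in 1 CD34bright library, and Tfrc in the other 5. The ratio holds the level on which Tfrc was chosen, so it is given without a test.

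**Figure D2:**
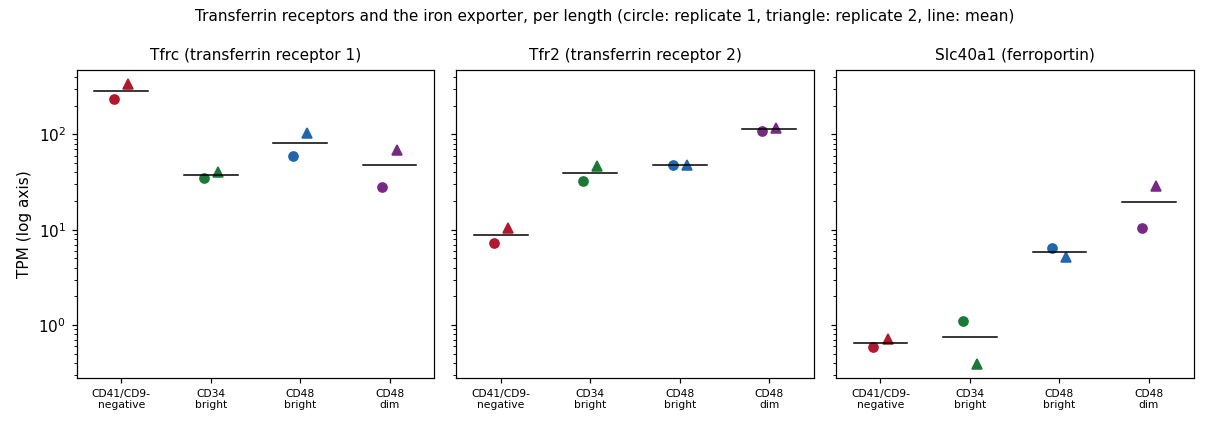
Level per transcript length of Tfrc, Tfr2 and Slc40a1 in TPM (y axis, log scale shared by the panels) in the 4 populations (x axis), with circles for replicate 1, triangles for replicate 2 and a line at the mean. Tfrc exceeds Tfr2 in both CD41/CD9-negative libraries, at 235 and 341 against 7.23 and 10.5 TPM, while both CD48dim libraries have more Tfr2 than Tfrc and the highest Slc40a1.

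The transporters that act after the receptor lay at lower levels in CD41/CD9-negative cells without passing the test. Steap3 (chromosome 1, 120226414 to 120271081) encodes the endosomal reductase that developing red cells use for transferrin-borne iron. It lay at 22.0 and 22.5 CPM in CD41/CD9-negative cells, 33.1 and 55.7 CPM in CD34bright, 38.3 and 44.2 CPM in CD48bright and 53.5 and 62.0 CPM in CD48dim cells. Both CD41/CD9-negative libraries lay below all 6 others, and the CD34bright libraries overlapped both CD48 populations.

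The log2 difference of Steap3 in CD41/CD9-negative cells was -1.13 ± 0.35 (SE) from the mean of the CD48 populations, with an adjusted p of 0.162, and -1.37 ± 0.39 from CD48dim alone, with an adjusted p of 0.0917, by edgeR's quasi-likelihood test with Benjamini-Hochberg adjustment. With a block for replicate number, the difference from CD48dim passed at an edgeR adjusted p of 0.0463. DESeq2 called the difference from the mean of the CD48 populations at an adjusted p of 0.0353. Without CD48dim replicate 1 the edgeR log2 difference from that mean was -1.18.

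Slc11a2 (chromosome 15, 100387898 to 100424209), the DMT1 gene, lay at 17.9 and 23.4 CPM in CD41/CD9-negative cells, 29.5 and 29.8 CPM in CD34bright, 32.4 and 35.9 CPM in CD48bright and 32.2 and 39.0 CPM in CD48dim cells. Its CD41/CD9-negative libraries were again the lowest of the 8, next came both CD34bright libraries, and the CD48 populations overlapped. The log2 difference of CD41/CD9-negative cells from the mean of the CD48 populations was -0.75, with a 95% interval of -1.52 to 0.02 and an edgeR adjusted p of 0.391. A long noncoding gene, Gm5475, overlaps Slc11a2 and cannot be told apart from it by strand in these unstranded libraries, but held 5 counts against 3247 over all libraries.

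Hfe (chromosome 13, 23702034 to 23710854) encodes the MHC class I-like protein that binds transferrin receptor 1 and is altered in hereditary haemochromatosis. Per length it had the lowest mean TPM of the 4 uptake genes in each population. It lay at 2.75 and 4.36 CPM in CD41/CD9-negative cells, 12.6 and 6.89 CPM in CD34bright, 10.3 and 17.6 CPM in CD48bright and 1.54 and 0 CPM in CD48dim cells. The CD48dim values are 21 counts and 0 counts, and 0 counts in the second library allow a level of up to 0.412 CPM, the value of 3 counts, for counting error only. Populations did not overlap between CD48dim and any other, nor between CD41/CD9-negative and any other, while CD34bright and CD48bright overlapped.

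Hfe differed by a log2 fold change of 4.06 ± 1.22 (SE) between CD48bright and CD48dim cells, with an edgeR adjusted p of 0.194, and by 3.55 ± 1.19 between CD34bright and CD48dim cells, with an edgeR adjusted p of 0.166. Both folds rest on 21 counts in 1 CD48dim library. Both differences were called by DESeq2, with adjusted p of 0.00364 and 0.00996, and by edgeR without the filter on low counts, with adjusted p of 0.00592 and 0.0140. Without CD48dim replicate 1 no fold is given, because the CD48dim library left holds 0 counts. Without CD48dim replicate 2 the log2 fold changes were 3.17 and 2.66. Mature neutrophil markers were highest in the same population, with sums of 4217 and 607 CPM in CD48dim replicates 1 and 2 against 697 and 45.4 CPM in CD41/CD9-negative, 75.5 and 79.7 CPM in CD34bright and 133 and 71.2 CPM in CD48bright replicates 1 and 2, and their part in these values was not tested.

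The exporter gene Slc40a1 (chromosome 1, 45908070 to 45926532) was the 1 gene of the 9 other than Tfrc that passed the test in a main comparison. It lay at 1.02 and 1.13 CPM in CD41/CD9-negative cells, 2.37 and 0.711 CPM in CD34bright, 12.6 and 8.14 CPM in CD48bright and 19.0 and 35.5 CPM in CD48dim cells. These levels rest on 13 and 14 counts in CD41/CD9-negative, 46 and 10 in CD34bright, 243 and 89 in CD48bright and 259 and 258 in CD48dim libraries. Levels followed the order CD48dim, CD48bright, CD34bright, CD41/CD9-negative, and the last pair overlapped while all others did not.

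Slc40a1 fell by 3.95 ± 0.77 (log2, SE) in CD41/CD9-negative cells against the mean of CD48bright and CD48dim, with an adjusted p of 0.0324 by edgeR's quasi-likelihood test with Benjamini-Hochberg adjustment. Within replicate number 1 the log2 difference was -3.74, and within number 2 it was -3.75. The 2 numbers were less alike in other comparisons of this gene. They gave -0.58 and -2.10 for CD48bright against CD48dim, and -2.64 and -4.33 for CD34bright against the mean of the CD48 populations. Any difference among the 4 populations had an adjusted p of 0.0292 in the same edgeR fit, in which 322 of 13177 genes (2.44%) were called. The difference between CD41/CD9-negative and CD48dim cells alone was -4.65 ± 0.83 (log2, SE; edgeR adjusted p = 0.0188). The differences from CD48bright (log2 -3.26 ± 0.79, edgeR adjusted p = 0.190) and from CD34bright (log2 -0.53 ± 0.75, edgeR adjusted p = 0.897) were not called.

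The call of Slc40a1 was sensitive to leaving out libraries, whereas the size of its difference was not. The log2 difference from the mean of the CD48 populations lay between -3.70 and -4.14 when each of the 8 libraries was left out in turn. The call was lost without CD41/CD9-negative replicate 1 (edgeR adjusted p = 0.326), CD41/CD9-negative replicate 2 (0.278), CD48bright replicate 1 (0.0925) or CD48bright replicate 2 (0.0664), and with limma-voom (adjusted p = 0.0601). The call of any difference among the 4 populations was lost without the same 4 libraries, without CD34bright replicate 2 and with limma-voom, at adjusted p of 0.0507 to 0.145. The call against CD48dim alone was lost without either CD41/CD9-negative library, at edgeR adjusted p of 0.171 and 0.166.

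CD34bright cells also had few Slc40a1 counts. Their log2 difference was -3.43 ± 0.74 (SE) from the mean of the CD48 populations, with an edgeR adjusted p of 0.284 where no gene of any kind was called, and -4.12 ± 0.81 from CD48dim, with an edgeR adjusted p of 0.0575. With a block for replicate number, the difference from CD48dim passed, at an edgeR adjusted p of 0.0268. The difference from the mean of the CD48 populations was called by DESeq2 (adjusted p = 0.000139) and by edgeR without the low-count filter (adjusted p = 0.00677). In log2 it was -3.60 without CD48dim replicate 1 and -3.16 without CD48dim replicate 2.

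Macrophages are the marrow cells best known for ferroportin, and erythroid precursors also carry it. The 12 macrophage markers summed to 36.0 to 36.6 CPM in CD41/CD9-negative, 20.8 to 27.6 in CD34bright, 25.0 to 69.9 in CD48bright and 27.2 to 77.5 in CD48dim libraries. Cd5l, Mertk, C1qa and Siglec1 were at 0 in both CD41/CD9-negative libraries and none of the 12 was at 0 in both libraries of another population. Cd163 took most of the sum in CD41/CD9-negative cells, at 21.0 and 29.5 CPM, and lay at 7.27 and 5.97 CPM in CD34bright, 11.4 and 11.4 CPM in CD48bright and 3.67 and 6.18 CPM in CD48dim cells. Its log2 difference from the mean of the CD48 populations was 1.75 ± 0.46 (SE; edgeR adjusted p = 0.0998), and that of Adgre1 was 1.48 ± 1.19 (SE; edgeR adjusted p = 0.704). These were the 2 positive differences among the 10 macrophage markers tested. The median over the 10 was -3.01 in that comparison, and edgeR called none of them. Erythroid markers had their highest sums in CD48dim cells and their lowest in CD34bright cells, as given above. The 8 stem markers summed to 242 to 397 CPM in CD41/CD9-negative, 385 to 562 in CD34bright, 381 to 482 in CD48bright and 1680 to 2441 in CD48dim libraries. For the 8 megakaryocyte markers the sums were 28.3 to 47.2, 83.2 to 100.4, 80.7 to 97.1 and 183 to 225 CPM in the same order. The part of any of these lists in the level of Slc40a1 was not tested.

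Ferritin had the highest levels per length. In TPM, the ferritin genes Fth1 and Ftl1 together summed to 2038 to 5293 TPM, whereas the largest level among the other 8 genes was 363 TPM, for Ncoa4. Ftl1 (chromosome 7, 45457944 to 45459886) lay at 1321 and 474 CPM in CD41/CD9-negative cells, 1478 and 1013 CPM in CD34bright, 1438 and 655 CPM in CD48bright and 821 and 358 CPM in CD48dim cells. Fth1 (chromosome 19, 9980600 to 9985111) lay at 754 and 554 CPM in CD41/CD9-negative cells, 678 and 485 CPM in CD34bright, 619 and 576 CPM in CD48bright and 667 and 214 CPM in CD48dim cells.

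For both ferritin genes, replicate 2 lay below replicate 1 in all 4 populations, and the populations overlapped except that both CD34bright libraries exceeded both CD48dim libraries for Ftl1. In all 4 populations replicate 2 also had the smaller share of counts in ribosomal protein genes, at 6.65% and 5.21% in CD41/CD9-negative, 9.78% and 6.30% in CD34bright, 8.35% and 5.87% in CD48bright and 9.36% and 2.38% in CD48dim replicates 1 and 2, and the larger Malat1 level. The part of these library properties in the ferritin levels was not tested. No comparison called either gene in the fit of all libraries without a block.

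With a block for replicate number, Ftl1 was called between CD34bright and CD48dim cells at a log2 fold change of 1.20 and an edgeR adjusted p of 0.0482, against 1.08 ± 0.61 (SE) and 0.367 without the block. Without CD48dim replicate 1, the log2 fold change of Ftl1 between CD34bright and CD48dim cells was 1.81. In the same setting that of Fth1 between CD48bright and CD48dim cells was 1.49. With all libraries it was 0.44 ± 0.50 (SE), at an edgeR adjusted p of 0.726. Without that library the log2 difference of Fth1 from CD48dim was 1.62 in CD41/CD9-negative cells and 1.46 in CD34bright cells. The values without that library set the other populations against CD48dim replicate 2 alone. The ratio of Fth1 to Ftl1 in TPM lay between 0.448 and 1.22 and was below 1 in 7 of 8 libraries. Pseudogenes of ferritin and of Ncoa4 are listed in the mouse annotation and have no row in the tables, so reads of such copies could not be told from those of the genes.

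**Figure D3:**
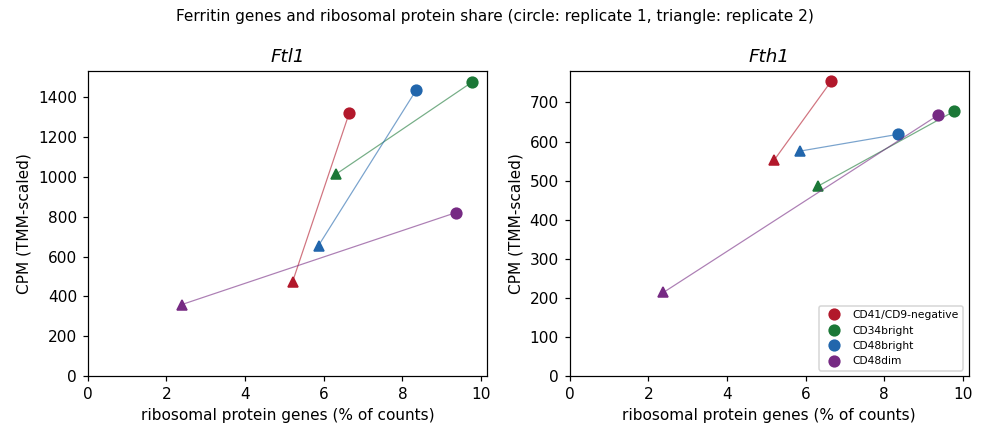
Level of Ftl1 and Fth1 in CPM (y axis) against the share of a library's counts in ribosomal protein genes in percent (x axis), with circles for replicate 1, triangles for replicate 2, colours for the 4 populations and lines that join partners. In every population replicate 2 lies to the left of and below replicate 1 for both genes, and CD48dim replicate 2 is the leftmost and lowest point at 2.38%, 358 CPM of Ftl1 and 214 CPM of Fth1.

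Ncoa4 (chromosome 14, 32159879 to 32179855), the ferritin cargo receptor gene, varied less. It lay at 529 and 588 CPM in CD41/CD9-negative cells, 682 and 785 CPM in CD34bright, 691 and 622 CPM in CD48bright and 408 and 503 CPM in CD48dim cells. CD48dim libraries were the lowest and CD41/CD9-negative libraries the next lowest, with no overlap between these or with the others, and CD34bright and CD48bright overlapped. The log2 difference was 0.53 ± 0.31 (SE) between CD48bright and CD48dim cells, with a 95% interval of -0.18 to 1.23 and an edgeR adjusted p of 0.475.

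The sensor genes did not separate the populations. Aco1 (chromosome 4, 40143265 to 40199009), which encodes IRP1 and, with an iron-sulfur cluster in place, cytosolic aconitase, lay between 15.4 and 31.5 CPM in the 8 libraries, with means of 22.1 ± 2.42 in CD41/CD9-negative, 26.1 ± 5.25 in CD34bright, 23.9 ± 10.8 in CD48bright and 22.1 ± 9.47 CPM in CD48dim cells (SD, n = 2). Ireb2 (chromosome 9, 54862658 to 54912534), which encodes IRP2, lay at 95.6 and 172 CPM in CD41/CD9-negative cells, 97.3 and 84.4 CPM in CD34bright, 111 and 144 CPM in CD48bright and 75.8 and 139 CPM in CD48dim cells. All populations overlapped for Aco1, and for Ireb2 all did except CD34bright and CD48bright.

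The 95% interval of the log2 difference of CD41/CD9-negative cells from the mean of the CD48 populations was -1.05 to 0.93 for Aco1 and -0.59 to 0.98 for Ireb2. Changes within these intervals were not excluded at this depth and number of libraries. Per length Ireb2 exceeded Aco1 in 8 of 8 libraries, with TPM ratios between 1.93 and 6.61.

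Read as counts, the genes gave the following. In the comparison of CD41/CD9-negative cells with the mean of the CD48 populations, on which Tfrc was chosen, 1 of the other 9 genes was called, Slc40a1, and it was lower. Of all genes, 2.44% were called, 1.53% higher and 0.911% lower. In that comparison 3 of 9 genes, Slc11a2, Slc40a1 and Steap3, had both CD41/CD9-negative libraries below all 4 CD48 libraries, against 8.98% of all genes. The median log2 difference was 0.03 over these 9 genes and -0.02 over all 13177. Fitted with a block for replicate number, 562 genes were called and the 1 of the 9 was again Slc40a1.

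For CD34bright against the mean of the CD48 populations, 0 of the 10 genes and 0 of all genes (0%) were called by edgeR, with 1095 genes (8.31%) and 1 of the 10, Slc40a1, at an unadjusted p below 0.05. DESeq2 called 241 genes there, Slc40a1 among them, and limma-voom called 0. The median log2 difference was 0.02 over the 10 genes and -0.04 over all genes.

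For CD48bright against CD48dim, 0 of the 10 genes were called by edgeR, against 51 of all genes (0.387%), or 178 with a block for replicate number. Tfrc and Hfe were below 0.05 without adjustment, as were 14.6% of all genes, DESeq2 called 1 gene of the 10, Hfe, and limma-voom called 0. Libraries did not overlap for Tfrc, Hfe and Ncoa4, which lay higher in CD48bright cells (20.2% of all genes did), and for Slc40a1 and Steap3, which lay lower (18.9% did). That is 5 of 10 genes, against 39.1% of all genes in either direction, a share near the background. The comparisons share libraries and are not independent.

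Between single populations, 1 of the 9 genes other than Tfrc, Slc40a1, was called by edgeR in CD41/CD9-negative against CD48dim cells, and 4.02% of all genes were. In CD41/CD9-negative against CD34bright cells 0 of 9 were called with 0.842% of all genes, and against CD48bright cells 0 of 9 with 0.212%, while 1 (Steap3) and 2 (Slc40a1 and Steap3) of the 9 were below 0.05 without adjustment, as were 9.91% and 7.12% of all genes. In CD34bright against CD48dim cells 0 of 10 were called with 0.577% of all genes, and 2, Slc40a1 and Hfe, were below 0.05 without adjustment, as were 19% of all genes. In CD34bright against CD48bright cells 0 of 10 and 0% of all genes were called, and 2 of the 10, Tfrc and Slc40a1, and 1.99% of all genes were below 0.05 without adjustment. In these 4 comparisons with no call, limma-voom called none of the genes, and DESeq2 called Slc40a1 against CD48bright in CD41/CD9-negative cells (adjusted p = 0.00215) and Slc40a1 and Hfe in CD34bright against CD48dim cells.

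**Figure D4:**
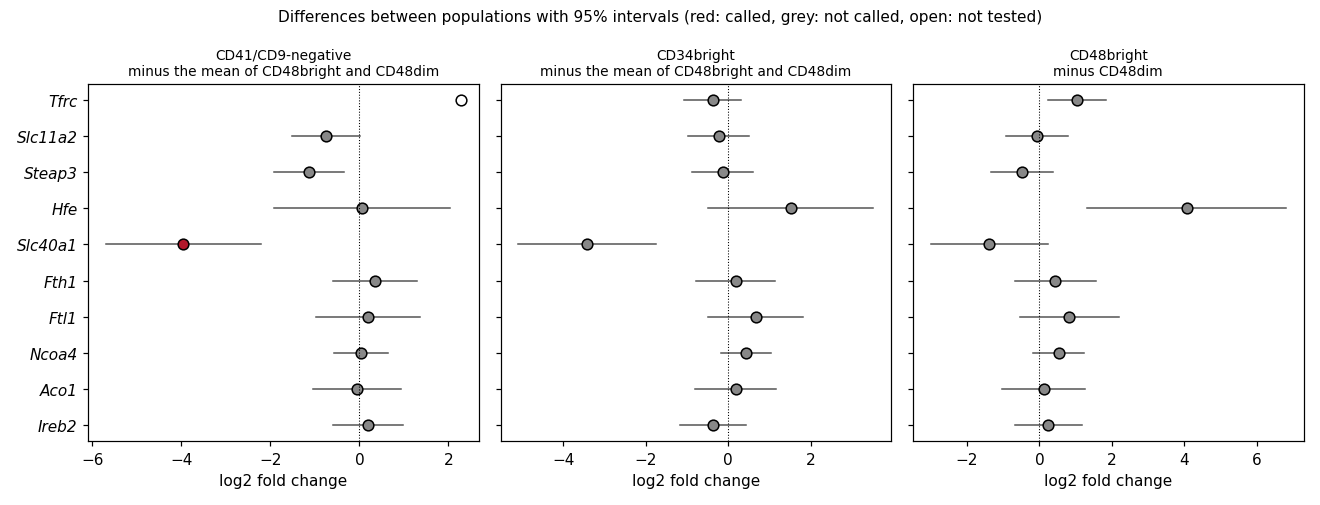
Log2 fold change (x axis) of each of the 10 genes (y axis) in 3 comparisons of populations, with bars for the 95% interval. The red point is Slc40a1 in CD41/CD9-negative cells against the mean of the CD48 populations, at -3.95, the 1 value called at an edgeR adjusted p below 0.05; grey points were not called, and the open point is Tfrc at 2.28, which was not tested.

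Beyond the 10 genes, 71 further genes of iron biology were listed, of which 56 passed the filter. None was called higher and 1, Tfr2, was called lower in CD41/CD9-negative cells against the mean of the CD48 populations, with a median log2 difference of -0.02, the same to 2 decimals as over all genes. Of all genes, 1.53% were called higher and 0.911% lower there. None of the 56 was called by edgeR in CD34bright cells against that mean, with 6 below 0.05 without adjustment, or between CD48bright and CD48dim cells, with 5. Of all genes, 0% and 0.387% were called in these comparisons, and 8.31% and 14.6% were below 0.05 without adjustment. Limma-voom also called none there, and DESeq2 called 1, the iron-sulfur assembly gene Fam96a, between CD48bright and CD48dim cells. Of all 13177 genes, limma-voom called 0 and 5 in these comparisons, and DESeq2 called 241 and 759. Without CD48dim replicate 1, edgeR called 4, 7 and 12 of 58 such genes in the 3 comparisons, or 6.9%, 12.1% and 20.7%, against 12.3%, 11.8% and 23.3% of all genes tested. All 29 genes of mitochondrial iron import and iron-sulfur cluster assembly and all 12 genes of haem uptake, export and breakdown were tested, and edgeR called none of them in these 3 comparisons with all libraries.

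Some of the wider genes show the sizes involved. Slc25a37, which encodes the mitochondrial iron importer mitoferrin 1, lay at 196 and 229 CPM in CD41/CD9-negative, 146 and 203 CPM in CD34bright, 158 and 223 CPM in CD48bright and 207 and 325 CPM in CD48dim cells, with overlapping libraries and an edgeR adjusted p of 0.961 for CD41/CD9-negative cells against the mean of the CD48 populations. Fbxl5, whose product targets IRP2 for breakdown when iron is plentiful, lay at 72.5 and 83.6 CPM in CD41/CD9-negative, 43.6 and 46.6 CPM in CD34bright, 47.3 and 56.8 CPM in CD48bright and 28.4 and 64.9 CPM in CD48dim cells. Both CD41/CD9-negative libraries were above the others for Fbxl5, at a log2 difference of 0.66 ± 0.35 (SE) from the mean of the CD48 populations and an edgeR adjusted p of 0.485. Exoc6, a subunit of the exocyst needed for transferrin cycling in mouse red cell precursors, lay at 148 and 153 CPM in CD41/CD9-negative, 112 and 115 CPM in CD34bright, 107 and 116 CPM in CD48bright and 74.4 and 88.6 CPM in CD48dim cells, with an edgeR adjusted p of 0.264 in the same comparison.

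The genes whose log2 CPM over the 8 libraries was most like that of Tfrc, among 9737 genes, were Pip4k2a (Pearson's r = 0.988), Lat2 (0.986), Rbm47 (0.986), Camk1d (0.985) and Tpd52 (0.984). Camk1d, a calcium-dependent kinase gene, averaged 305 CPM in CD41/CD9-negative, 24.0 in CD34bright, 73.4 in CD48bright and 21.9 CPM in CD48dim cells. Those most like Slc40a1 were Nudt9 (0.982), Armcx1 (0.957), Cyhr1 (0.954), Rabep2 (0.951) and Pecr (0.948). Pecr, a peroxisomal reductase gene, averaged 3.15 CPM in CD41/CD9-negative, 4.46 in CD34bright, 8.91 in CD48bright and 16.1 CPM in CD48dim cells. These values describe 8 libraries of 4 populations, in which any pair of genes that part the populations alike will correlate.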

How the data were processed

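RNA-seq of 8 libraries was used. Per the labels' protocols, total RNA was amplified by the Ovation V2 system, which leaves the libraries without strand. The submitters' processing notes name RSEM 1.3.2, the aligner STAR 2.7.2a, edgeR 3.30.3 and the build mm10, with no annotation release. The authors deposited expected counts, TPM and effective lengths (another unit, bases) per gene, per the file headers, and a second table with the same expected counts for 9918 genes, which holds 9 of the 10 genes described (not Fth1). TPM is scaled to a fixed total within a library and keeps no depth.

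Expected counts were rounded, filtered with filterByExpr by population, scaled by TMM and fitted with edgeR 4.0.16 in R 4.3.3 (quasi-likelihood F-test, 1 mean per population, all 8 libraries, 4 residual and 5.46 prior degrees of freedom, biological coefficient of variation 49.8%). A gene counts as called where its p, adjusted by Benjamini-Hochberg over every gene tested, is below 0.05. Intervals and SE come from the F statistic and are approximate. The counts of the 10 genes were whole, with a posterior SD of 0 in the deposited tables. The script was tested on simulated data. Alternatives were DESeq2 1.42.0 and limma-voom (limma 3.58.1), other scaling, no filter, an effective length offset, only the libraries compared, each library left out, and the replicate number as a block. Same-numbered libraries of different populations deviated together in all 6 pairs of populations (correlations of 0.112 to 0.222), and the labels do not say why. The numbers were used as a block in an alternative fit only. Values are from the main fit, which has no block, unless another setting is named. The p-values, SE and intervals of the main fit thus do not account for a pairing by number.

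Samples were grouped by the sort gates, and the cluster numbers in the titles, which differ from those in the design text, were not used. The genes and lists were chosen with earlier results of these data known. All 10 genes are named, and of the wider lists those called, with others by value only, and the 5 genes most like Tfrc and Slc40a1 with a mean of at least 8 CPM. Slc25a37, Fbxl5 and Exoc6 were picked from the lists after their values were seen, as were the single pairs of populations, and the hairpin search was added after the tests. Positions are those of GRCm38.p6, the assembly of mm10.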

Additional observations from a re-analysis of the deposited data

How the results depend on the processing

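Counts of calls depended on the settings. Of the 10 genes, no value called in the main fit changed sign in any alternative. Values not called in the main fit did change sign when each library was left out. For CD48bright against CD48dim, Fth1 lay between -0.16 and 1.49 (log2). For CD41/CD9-negative cells against the mean of the CD48 populations, Ftl1 lay between -0.72 and 0.75. Aco1, Ireb2, Hfe and Ncoa4 also changed sign there. In the order CD41/CD9-negative against the mean of the CD48 populations, CD34bright against that mean, CD48bright against CD48dim, and any difference among the 4 populations, edgeR called 322, 0, 51 and 322 genes. Without the low-count filter it called 778, 206, 588 and 1607, and DESeq2 called 901, 241, 759 and 1718. Limma-voom called 5 genes in the CD48 comparison and 141 for any difference. With the replicate number as a block, 562, 178 and 764 genes were called in all but the CD34bright comparison. With only the libraries compared, the CD41/CD9-negative and CD48 comparisons gave 179 and 0. Leaving out each library in turn gave 29 to 1692, 0 to 1621, 4 to 3211 and 32 to 3399 genes. Of the 10 genes (9 without Tfrc in the CD41/CD9-negative comparison and for any difference), edgeR called 1, 0, 0 and 1. DESeq2 called 2, 1, 1 and 2, no filter gave 1 in the CD34bright and CD48 comparisons and 2 for any difference, and limma-voom gave 0 in the CD41/CD9-negative comparison and for any difference. Leaving out each library gave 0 to 2, 0 to 2, 0 to 2 and 0 to 3. Where a call changed, the cause was not tested. The block for replicate number changed no member's call in these 4 comparisons. In TPM the order of population means changed for Tfrc, Aco1, Ireb2 and Steap3, and with DESeq2 size factors for Aco1. With 13 and 14 counts of Slc40a1 in CD41/CD9-negative libraries and 21 and 0 of Hfe in CD48dim libraries, depth limits both genes.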
